A study of Mus musculus with 14 samples.

Results

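The 49 genes described here encode the complement and blood clotting systems. They are a given list of symbols, and all 49 were found by symbol among the 23420 genes of each of the 2 count tables, 1 of livers and 1 of hepatic stellate cells. Of the 49, 23 belong to complement and 26 to clotting, fibrinolysis and kinin release. By where each gene is known to be expressed, 30 were placed with hepatocytes, 6 with both hepatocytes and stromal cells, 5 with macrophages and 8 with stromal or other cells.

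Messenger RNA was read in 6 groups. Liver tissue came from 3 p62KO mice, which lack the autophagy and signalling adaptor p62 (gene Sqstm1), and from 3 wild-type (WT) mice, and every mouse had received DEN, a liver carcinogen, and a high-fat diet (HFD). Hepatic stellate cells (HSC), the vitamin A-storing pericytes of the liver, were taken from p62KO and WT livers, immortalized with SV40 antigen and grown in DMEM with fetal bovine serum. They gave 4 groups of 2 libraries each, p62KO with calcipotriol, WT with calcipotriol, p62KO with vehicle and WT with vehicle, where calcipotriol is a synthetic activator of the vitamin D receptor. The sources used here do not state mouse age, the dose of calcipotriol, its time or how many lines stand for a genotype. Genotype therefore cannot be told apart from the line, and the p-values in stellate cells measure the spread between libraries that may share a culture.

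Complement is a chain of plasma proteases. C1q, mannose-binding lectin or spontaneous turnover starts it, all 3 routes meet at C3, and the chain ends in a pore built from C5b to C9. Clotting runs through a similar chain from tissue factor or the contact factors to thrombin, which cuts fibrinogen into fibrin, and plasmin later dissolves the fibrin. Hepatocytes secrete most of the plasma proteins, tissue macrophages are the main source of C1q, and stromal and endothelial cells carry the cell-bound parts, such as tissue factor, thrombomodulin and the thrombin and urokinase receptors.

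Promoters are shown for genes on which the results turn. C1qb stands for the macrophage genes that were higher in p62KO livers, Fgb and F9 for plasma factors read in livers and not in stellate cells, and C3, Cd55 and Pros1 for genes that were high in 1 stellate cell library. Each line gives the 200 bases before the RefSeq start, from RefSeq on GRCm38.p6, with coordinates and strand, and capitals mark matches to the motifs named below it.
C1qb, chr4:136886201-136886400, minus strand: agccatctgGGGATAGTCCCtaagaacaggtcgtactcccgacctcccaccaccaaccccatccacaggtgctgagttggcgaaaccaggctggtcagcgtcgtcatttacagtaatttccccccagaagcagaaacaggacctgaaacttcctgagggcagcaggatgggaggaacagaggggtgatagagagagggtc
Fgb, chr3:83049864-83050063, minus strand: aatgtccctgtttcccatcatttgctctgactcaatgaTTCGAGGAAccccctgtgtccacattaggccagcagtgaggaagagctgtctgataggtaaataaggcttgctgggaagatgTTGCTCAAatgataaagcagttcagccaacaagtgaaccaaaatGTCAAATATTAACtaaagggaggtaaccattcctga
F9, chrX:59999264-59999463, plus strand: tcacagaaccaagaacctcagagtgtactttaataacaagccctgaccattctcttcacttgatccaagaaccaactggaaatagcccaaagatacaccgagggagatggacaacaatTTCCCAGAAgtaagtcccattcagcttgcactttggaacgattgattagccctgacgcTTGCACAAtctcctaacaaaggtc
C3, chr17:57228137-57228336, minus strand: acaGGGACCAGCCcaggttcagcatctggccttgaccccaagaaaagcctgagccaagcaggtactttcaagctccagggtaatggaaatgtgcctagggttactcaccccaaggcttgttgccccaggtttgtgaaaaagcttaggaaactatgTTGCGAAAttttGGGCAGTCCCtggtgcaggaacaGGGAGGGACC
Cd55, chr1:130462745-130462944, minus strand: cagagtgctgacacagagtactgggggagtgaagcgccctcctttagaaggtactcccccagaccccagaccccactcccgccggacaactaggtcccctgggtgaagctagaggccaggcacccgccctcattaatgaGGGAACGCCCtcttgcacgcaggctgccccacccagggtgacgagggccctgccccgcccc
Pros1, chr16:62854107-62854306, plus strand: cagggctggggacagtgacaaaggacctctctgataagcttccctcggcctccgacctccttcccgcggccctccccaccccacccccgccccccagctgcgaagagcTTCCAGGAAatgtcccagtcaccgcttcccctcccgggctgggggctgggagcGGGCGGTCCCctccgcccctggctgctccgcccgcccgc
Matches were searched on both strands in windows from 250 bases before to 50 after the start, and 37 of the 49 genes had such a window. In Fgb the match nearest the start is GTCAAATATTAAC, which differs at 2 letters from the HNF1 motif, GTTAAT and ATTAAC with 1 free base between them. The other capitals in Fgb and F9 are the STAT motif TTCNNNGAA and the C/EBP motif TTGCNNAA. C3 held 1 C/EBP match and 3 NF-kB matches (GGGA and CC with 4 free bases between them), Cd55 held 1 NF-kB match, and Pros1 held 1 STAT and 1 NF-kB match. C1ra, high in the same stellate cell library but not printed, held a STAT and a C/EBP match after the start and no NF-kB match. Cfb and Serping1, also high there, had no window. In C1qb, matches to NF-kB on both strands overlap in 1 run of capitals. The HNF1 motif, with up to 2 mismatches, was in 5 of the 25 hepatocyte genes with a window (20.0%) and in 1.58% of the 27025 genes with one. C/EBP was in 8 of the 25 (32.0%, against 12.2% of all) and STAT in 5 of the 25 (20.0%, against 9.55%). NF-kB was in 3 of the 25 (12%) against 22.9% of all genes, and in 2 of the 4 macrophage genes. A match is a string of letters and not evidence of binding.

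The liver libraries held 17506607 to 20040583 counts and the stellate cell libraries 15207117 to 29079258. Values per library are given in CPM, counts relative to the TMM-scaled library total, and levels of different genes are compared only per 1000 bases of exon (RPKM). Positions are on mm10. Sqstm1 (chr11:50199366-50210827) stood at 1.56, 2.12 and 1.44 CPM in p62KO livers against 578, 448 and 583 CPM in WT livers. In stellate cells it stood at 0.211 to 0.835 CPM in the 4 p62KO libraries and at 316 to 340 CPM in the 4 WT libraries. One p62KO vehicle library, replicate 1, differed from its partner in inflammatory genes. Its acute-phase gene Saa3 was at 298 CPM and its monocyte chemokine Ccl2 at 350 CPM, while replicate 2 had 0.158 CPM of Saa3 and 25.9 CPM of Ccl2. WT calcipotriol replicate 1 had 30.7 CPM of Saa3, while the other 6 stellate libraries had at most 0.544 CPM. Ccl2 was at 26.7 CPM in WT calcipotriol replicate 1 and at 6.32 CPM in its partner, replicate 2.

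In liver, the highest levels per length belonged to the clot-forming and central complement proteins. In p62KO livers the order was C3 (1550 RPKM), Fga (1490), Fgg (1413), Fgb (1093), Kng1 (1032) and Plg (540). In WT livers it was Fga (1259 RPKM), C3 (1253), Fgg (1236), Fgb (901), Plg (600) and Kng1 (578). All 49 genes together took 4.23%, 3.70% and 4.07% of the counts in p62KO livers, against 3.16%, 3.25% and 3.16% in WT livers.

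In stellate cells, 20 of the 49 genes had no count in any of the 8 libraries, which allows up to 0.0190 CPM over all of them together. They include the 3 C1q chains, the 3 fibrinogen chains, prothrombin (F2), plasminogen (Plg) and both mannose-binding lectins. A further 15 had between 1 and 40 counts over the 8 libraries, and 14 had enough counts for testing. The cells were rich in the cell-bound clotting genes. F3, which encodes tissue factor, the starter of clotting, averaged 131 RPKM in p62KO calcipotriol cells, 228 in WT calcipotriol cells, 125 in p62KO vehicle cells and 150 in WT vehicle cells. F2r, the thrombin receptor PAR1, averaged 118, 162, 122 and 190 RPKM in the same 4 groups. Hepatocyte markers summed to 0.264 to 4.14 CPM in these libraries, and the macrophage markers Emr1 (the older symbol of Adgre1), Clec4f, Marco and Cd163 had no count. Macrophage markers summed to 30.1 to 196 CPM, most of it Gpnmb. Stellate and myofibroblast markers summed to 6320 to 19912 CPM with Col1a1 highest, and Lrat, a marker of quiescent stellate cells, had no count.

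**Figure D1:**
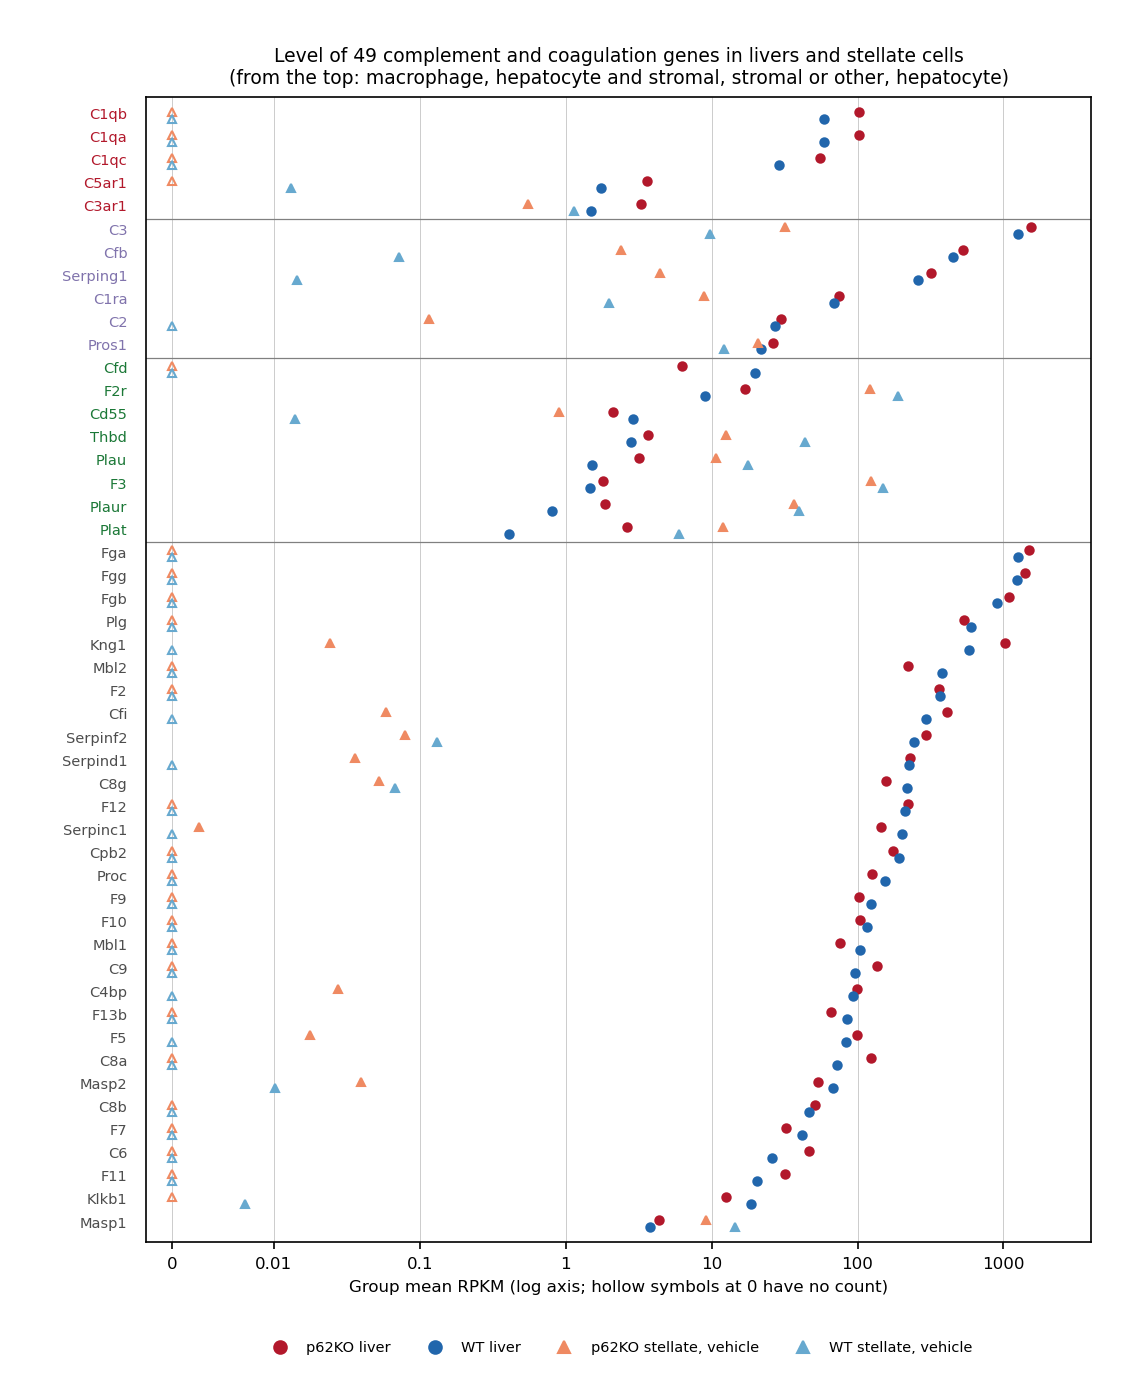
Mean RPKM (log axis) of the 49 genes in p62KO and WT livers (circles) and in p62KO and WT vehicle stellate cells (triangles), in 4 blocks by known source and ordered within each by WT liver level, with hollow symbols at 0 for groups without a count. Hepatocyte genes other than Masp1 lie far right in liver and at or near 0 in stellate cells. Masp1, F3, F2r, Thbd, Plau, Plaur and Plat lie further right in stellate cells than in liver.

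In p62KO livers 2 of the 5 macrophage genes and the plasminogen activator Plat rose relative to WT livers, while none of the 30 hepatocyte genes passed edgeR's test in either direction. All 49 genes were tested, and 3 rose with an adjusted p under 0.05 (edgeR's quasi-likelihood test, Benjamini-Hochberg over 12851 genes), against 4.48% of all genes called higher and 7.94% called in either direction. They were C5ar1, C1qc and Plat. None fell, against 3.45% of all genes called lower. At an unadjusted p under 0.05 the count was 19 of 49, against 32.5% of all genes, and DESeq2 called 14 of the 49, against 16.8% of all genes in that test. The 14 are the 5 macrophage genes, Plat, Plaur, F2r and Kng1 higher, and Mbl2, Masp2, Proc, Klkb1 and Cfd lower. The median log2 fold change was 0.23 over the 49 genes and 0.02 over all genes.

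The 5 macrophage genes are the 3 chains of C1q, the recognition molecule of the classical pathway, and the receptors for the inflammatory fragments C3a and C5a. C1qa, C1qb and C1qc lie side by side on the minus strand of chromosome 4, between 136880129 and 136898803. C1qc stood at 100, 107 and 114 CPM in p62KO livers against 42.3, 75.5 and 50.04 CPM in WT livers. C5ar1 stood at 7.90, 10.6 and 9.29 CPM in p62KO livers against 5.01, 4.13 and 4.24 CPM in WT livers. The groups did not overlap for either gene, nor for C1qa, C1qb and C3ar1, so all 5 were higher in every p62KO liver. Over the 49 genes, 12 were higher in every p62KO liver than in any WT liver and 8 lower, against 18.4% and 19.2% of all genes and 37.6% for both together. Log2 fold changes were 1.05 ± 0.18 (SE) for C5ar1, with an adjusted p of 0.0331, and 0.94 ± 0.21 for C1qc, with 0.0442. C3ar1 (1.12 ± 0.30), C1qb (0.80 ± 0.20) and C1qa (0.80 ± 0.20) had adjusted p of 0.0589, 0.0544 and 0.0545 in edgeR's test. C1qa averaged 107 ± 12.2 CPM in p62KO livers and 61.4 ± 16.9 CPM in WT livers (SD, n = 3 each), and C1qb 112 ± 3.39 and 64.4 ± 19.4 CPM.

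Most macrophage markers moved with these genes. Of 15 markers 5 rose and none fell past the threshold, while log2 fold changes ran from -3.66 to 2.55, 13 positive and 2 negative. Their sum was 1561, 1329 and 1457 CPM in p62KO livers against 543, 1329 and 625 CPM in WT livers. Mpeg1, the highest marker, was at 163, 168 and 161 CPM in WT livers, so other markers made the sum of WT liver 2 high. Divided by the marker sum, C1q (the 3 chains added) was 0.208, 0.231 and 0.237 in p62KO livers against 0.254, 0.182 and 0.265 in WT livers. The groups overlapped through WT liver 2 alone, and the other WT livers lay above all p62KO livers. In bulk tissue, more cells of a type and more RNA per cell cannot be told apart. WT liver 2 had both the highest marker sum and the highest C1q among WT livers.

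**Figure D2:**
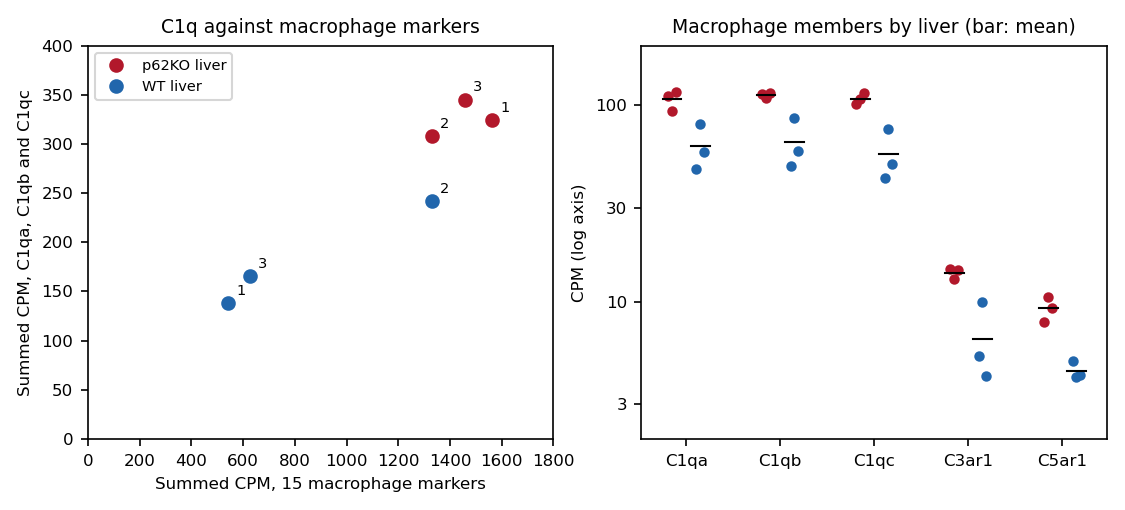
Left, summed CPM of C1qa, C1qb and C1qc against summed CPM of 15 macrophage markers in each liver, numbered by replicate; right, CPM (log axis) of the 5 macrophage genes in each p62KO and WT liver with the mean as a bar. The 3 p62KO livers lie at C1q sums of 308 to 345 CPM, above all WT livers (138 to 242 CPM), and WT liver 2 lies near them on the marker axis.

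Among the stromal and fibrinolytic genes, Plat changed most. It encodes tissue plasminogen activator (chr8:22757727-22782844), and stood at 24.7, 17.4 and 6.92 CPM in p62KO livers against 3.90, 1.47 and 2.29 CPM in WT livers. Every p62KO liver was higher than every WT liver, and p62KO liver 3 was the lowest of the p62KO livers. The log2 fold change was 2.67 ± 0.52 (SE), or 6.36-fold, with an adjusted p of 0.0380 in edgeR's test. Plau, urokinase, the other plasminogen activator, had 9.26, 8.52 and 4.79 CPM in p62KO livers against 2.58, 5.55 and 2.56 CPM in WT livers, and its receptor Plaur had 5.75, 5.73 and 3.11 CPM against 2.79, 2.49 and 1.06 CPM. Plaur did not overlap between groups and Plau did, with log2 fold changes of 1.20 ± 0.41 and 1.08 ± 0.38 and adjusted p of 0.0950 and 0.104. F2r was at 83.1, 52.4 and 35.2 CPM in p62KO livers against 27.5, 35.8 and 26.3 CPM in WT livers, with a log2 fold change of 0.93 ± 0.30 and an adjusted p of 0.0856. Thbd, thrombomodulin, which turns thrombin towards activating protein C, and F3 overlapped, with log2 fold changes of 0.39 ± 0.21 and 0.29 ± 0.30. Cfd, factor D, a protease known from fat cells that cleaves factor B, pointed the other way with 3.31, 5.34 and 8.59 CPM in p62KO livers against 7.29, 36.4 and 10.98 CPM in WT livers, its groups overlapped, and its adjusted p was 0.119. Stellate and myofibroblast markers rose for 7 of 15 genes, and their sum was 920, 1345 and 778 CPM in p62KO livers against 440, 531 and 475 CPM in WT livers. Cholangiocyte markers rose for 4 of 9 tested, with sums of 187 to 650 CPM in p62KO livers against 69.6 to 120 CPM in WT livers, and no endothelial marker of 12 passed. The part of the stellate or the cholangiocyte marker list in the Plat result was not tested.

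**Figure D3:**
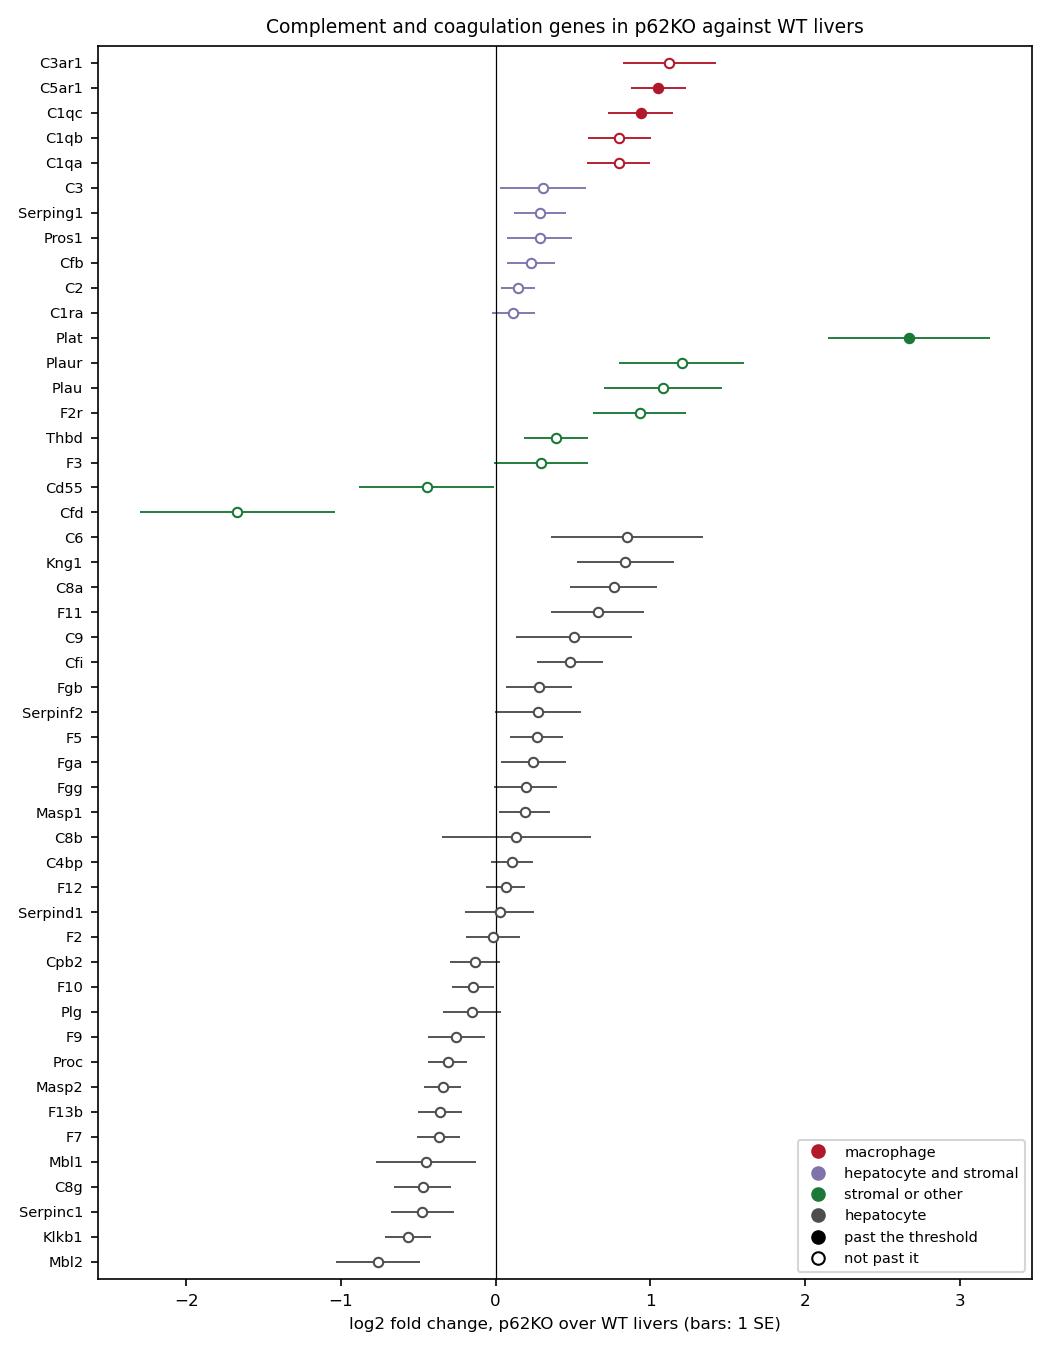
Log2 fold change of each of the 49 genes in p62KO over WT livers with 1 SE, grouped and coloured by known source; filled symbols passed the adjusted threshold. The filled symbols are C5ar1, C1qc and Plat, and the hepatocyte genes spread on both sides of 0, from -0.76 to 0.85.

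The 30 hepatocyte genes had a median log2 fold change of 0.04 and went both ways. Of them 3 were higher in every p62KO liver (C8a, Cfi and F5) and 8 were lower in every p62KO liver, against 18.4% and 19.2% of all genes. The 8 lower ones were Mbl2, Klkb1, Serpinc1, C8g, F7, F13b, Masp2 and Proc. Hepatocyte markers summed to 196110, 157746 and 123366 CPM in p62KO livers against 139435, 129982 and 169480 CPM in WT livers, with overlap, and 2 of 15 fell and none rose.

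Of the lectin pathway genes, Mbl2, Mbl1 and Masp2 were lower on average in p62KO livers, Masp1 was not (log2 fold change 0.19 ± 0.16), and none passed in edgeR's test, while DESeq2 called Mbl2 and Masp2 lower. Mbl2, a mannose-binding lectin, stood at 152, 237 and 340 CPM in p62KO livers against 411, 389 and 434 CPM in WT livers. The lowest WT liver was above the highest p62KO liver, the log2 fold change was -0.76 ± 0.27, and the adjusted p was 0.108 in edgeR's test. Masp2, the lectin protease that cuts C4 and C2, averaged 178 ± 17.1 CPM in p62KO livers and 226 ± 3.10 CPM in WT livers (SD, n = 3 each; adjusted p = 0.103 in edgeR's test). Mbl1 overlapped between groups, at 69.8, 102.8 and 186 CPM in p62KO livers against 165, 175 and 151 CPM in WT livers.

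The genes of the membrane pore varied widely among p62KO livers. C9, the subunit that lines the pore, stood at 228, 237 and 585 CPM in p62KO livers against 250, 289 and 199 CPM in WT livers. C6 stood at 72.8, 134 and 291 CPM in p62KO livers against 97.8, 120 and 58.6 CPM in WT livers, and C8b at 68.7, 87.8 and 232 against 122, 160 and 72.3 CPM. For C6, C8a, C8b and C9 alike, p62KO liver 3 was the highest of all 6 livers and WT liver 3 was the lowest of the WT livers. C8a was at 364, 384 and 599 CPM in p62KO livers against 257, 349 and 189 CPM in WT livers, with a log2 fold change of 0.76 ± 0.28 and an adjusted p of 0.115. C8g, which encodes the small lipocalin chain of C8, went the other way with 197, 207 and 298 CPM in p62KO livers against 304, 334 and 334 CPM in WT livers (log2 fold change -0.47 ± 0.18). C8g overlaps Fbxw5 on the other strand, and the sources do not say whether reads were counted by strand.

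The contact and kinin genes split. Kng1, kininogen, the precursor of bradykinin, stood at 4589, 3510 and 1961 CPM in p62KO livers against 2021, 1727 and 1884 CPM in WT livers. P62KO livers 1 and 2 were above all WT livers and p62KO liver 3 was among them, with a log2 fold change of 0.84 ± 0.31 and an adjusted p of 0.119 in edgeR's test. Its close copy Kng2, named after its values were seen, stood at 504, 407 and 286 CPM against 299, 279 and 296 CPM, and the sources do not say how reads common to both were counted. Klkb1, plasma prekallikrein, which releases bradykinin from kininogen, stood at 67.1, 54.0 and 77.1 CPM in p62KO livers against 89.9, 104 and 99.5 CPM in WT livers (log2 fold change -0.57 ± 0.15; adjusted p = 0.0569 in edgeR's test). Its neighbour on chromosome 8, F11, which encodes factor XI, pointed up, with 106, 67.8 and 41.8 CPM in p62KO livers against 48.9, 43.9 and 43.8 CPM in WT livers. The quotient of F11 over Klkb1 was 1.58, 1.26 and 0.541 in p62KO livers against 0.544, 0.423 and 0.440 in WT livers, so that p62KO liver 3 again lay within the WT range. F12, which starts the contact pathway, overlapped between the groups, at 422 to 452 CPM in p62KO livers against 394 to 434 CPM in WT livers.

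None of the fibrinogen chains, the other clotting factors or their inhibitors passed in edgeR's test, while DESeq2 called Proc lower (adjusted p = 0.0449). Fibrinogen, as the sum of its 3 chains, was 12693, 9820 and 12303 CPM in p62KO livers against 8978, 10295 and 10150 CPM in WT livers, and the groups overlapped. Log2 fold changes were 0.24 ± 0.21 for Fga, 0.28 ± 0.21 for Fgb and 0.19 ± 0.21 for Fgg. Serpinc1, antithrombin, the main inhibitor of thrombin, averaged 1238 ± 273 CPM in p62KO livers and 1718 ± 133 CPM in WT livers (SD, n = 3 each), and Proc, the anticoagulant protein C, 311 ± 23.99 and 385 ± 6.92 CPM. Both were lower in every p62KO liver, with log2 fold changes of -0.47 ± 0.21 and -0.31 ± 0.13 and adjusted p of 0.160 and 0.140 in edgeR's test. F7, which pairs with tissue factor, had a log2 fold change of -0.37 ± 0.14 and F13b, the carrier of the clot-crosslinking enzyme, -0.36 ± 0.14, and F5, the cofactor of factor Xa, had 0.26 ± 0.17. Prothrombin (F2) averaged 1663 ± 210 CPM in p62KO livers and 1685 ± 66.5 CPM in WT livers. Plg, F9, F10, Cpb2, Serpind1 and Serpinf2 overlapped between the groups, with log2 fold changes from -0.26 (F9) to 0.28 (Serpinf2). Serpinf2, which blocks plasmin, had 956, 673 and 422 CPM in p62KO livers against 564, 566 and 565 CPM in WT livers, so p62KO livers lay on both sides of a narrow WT range.

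The 6 genes of hepatocytes and stromal cells had log2 fold changes of 0.11 to 0.31 and none passed in edgeR's test. C3, the hub of complement, stood at 6321, 7107 and 10490 CPM in p62KO livers against 6245, 5864 and 7218 CPM in WT livers, with overlap, and a log2 fold change of 0.31 ± 0.28. Cfb, the protease of the alternative pathway, was higher in every p62KO liver, averaging 1488 ± 112 CPM against 1272 ± 11.3 CPM in WT livers (log2 fold change 0.23 ± 0.16). Of the hepatocyte genes that restrain complement, Cfi, which inactivates C3b, was at 1185, 852 and 719 CPM in p62KO livers against 659, 600 and 714 CPM in WT livers (log2 fold change 0.48 ± 0.21; adjusted p = 0.165 in edgeR's test), and C4bp had a log2 fold change of 0.11 ± 0.14.

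The liver count rested on few libraries. It was 1, 0 and 20 of 49 without p62KO liver 1, 2 or 3, against 0.85%, 0.0693% and 27.8% of all genes. It was 0, 1 and 0 without WT liver 1, 2 or 3, against 0.0911%, 0.167% and 0.0227%. The 20 genes without p62KO liver 3 were 12 higher and 8 lower, among 3669 of all genes. Scaling to hepatocyte markers gave 1 higher (Plat) and 1 lower (Cfd), in place of 3 higher and none lower.

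In vehicle-treated stellate cells 5 of the 14 tested genes passed between p62KO and WT, 3 higher and 2 lower, against 6.95% and 5.94% of 12681 genes, or 12.9% in either direction. The 3 higher ones were complement genes at low counts, and the 2 lower ones were Thbd and Plau, which act on thrombin and plasminogen. The other 9 did not pass, and 11 of the 14 had an unadjusted p under 0.05, against 29.7% of all genes. The median log2 fold change was 0.33 over the 14 and 0.03 over all genes. Of the 14, 4 were higher and 6 lower in both p62KO libraries than in both WT libraries, against 34.6% and 34.2% of all genes and 68.8% for both together. A gene can enter the 14 through the libraries in which it is high, so these counts say nothing of the other 35 genes. The 3 higher genes had at most 4 counts in any WT vehicle library and were kept for testing through p62KO libraries. They could pass only as higher, so their number cannot be weighed against the share of all genes.

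Thbd (chr2:148404466-148408188) stood at 69.0 and 24.97 CPM in p62KO vehicle cells against 165 and 162 CPM in WT vehicle cells. Both p62KO libraries were below both WT libraries. The log2 fold change was -1.80 ± 0.39 (SE) and the adjusted p 0.0226 in edgeR's test; it was -2.70 without p62KO vehicle replicate 1 and -1.25 without replicate 2, both past the threshold, but its adjusted p was 0.0642 in the fit of the 2 groups alone. Plau stood at 23.8 and 26.7 CPM in p62KO vehicle cells against 42.3 and 42.2 CPM in WT vehicle cells (log2 fold change -0.74 ± 0.20; adjusted p = 0.0455 in edgeR's test). Its receptor Plaur overlapped, at 69.6 and 121 CPM against 106 and 102 CPM, and Plat was at 101 and 47.6 CPM in p62KO vehicle cells against 38.2 and 36.6 CPM in WT vehicle cells (log2 fold change 0.99 ± 0.32; adjusted p = 0.0747 in edgeR's test). F2r was at 362 and 454 CPM in p62KO vehicle cells against 644 and 624 CPM in WT vehicle cells, and F3 at 357 and 272 CPM against 376 and 380 CPM. Both were lower in each p62KO library and neither passed in edgeR's test of all 8 libraries, with log2 fold changes of -0.64 ± 0.19 and -0.26 ± 0.19. F2r was called by DESeq2 (adjusted p = 0.0249) and in a fit of the 2 groups alone (0.0419). Masp1, a lectin pathway protease placed with hepatocytes, was the one gene of that class with enough counts in stellate cells, at 99.0 and 81.9 CPM in p62KO vehicle cells against 142 and 141 CPM in WT vehicle cells (log2 fold change -0.64 ± 0.19; adjusted p = 0.0641 in edgeR's test), and it too was called by DESeq2 (0.0386) and in the fit of the 2 groups alone (0.0360).

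**Figure D4:**
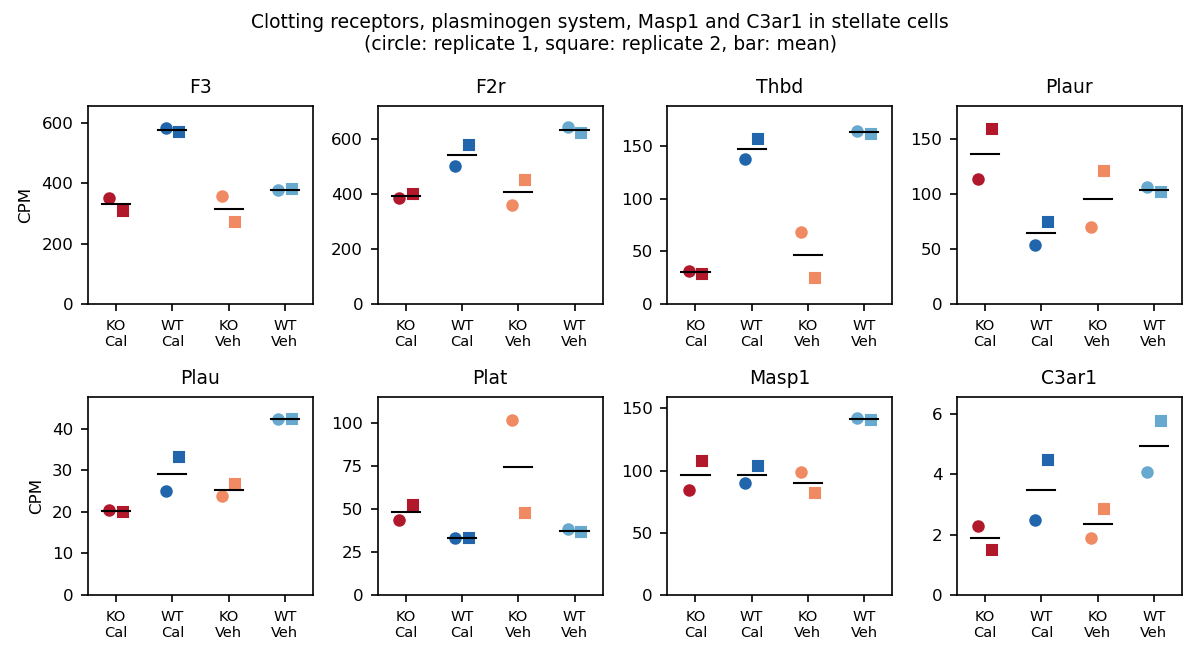
CPM of 8 genes in each stellate cell library, by genotype (KO, p62KO) and treatment (Cal, calcipotriol; Veh, vehicle), with the group mean as a bar. Thbd lies between 24.97 and 69.0 CPM in all 4 p62KO libraries and between 138 and 165 CPM in all 4 WT libraries, and F3 is highest in the WT calcipotriol cells.

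The 3 higher genes were Serping1, C1 inhibitor, Cd55, which takes C3 convertases apart on the cell's own surface, and Cfb. Serping1 had 387 and 5 counts in p62KO vehicle cells (20.2 and 0.264 CPM) against 0 and 1 in WT vehicle cells (0 and 0.0670 CPM). Cd55 had 144 and 24 counts against 2 and 0, and Cfb had 13 and 0.581 CPM against 0.272 and 0.134 CPM. In each of the 3 most of the p62KO counts lay in replicate 1. The ratio of summed counts after scaling was 305 for Serping1 (95% counting interval 54.4 to 12080) and 65.4 for Cd55 (17.8 to 544), intervals that leave out the spread between libraries. Cfb had a log2 fold change of 5.02 ± 1.36, and the adjusted p were 0.0478 for Serping1, 0.0306 for Cd55 and 0.0447 for Cfb in edgeR's test. Without p62KO vehicle replicate 1 none of the 3 passed, and of the 14 genes Thbd alone did. The log2 fold changes were then 2.76 for Serping1, 4.12 for Cd55 and 1.498 for Cfb, with adjusted p of 0.423, 0.134 and 0.330 in edgeR's test. With p62KO calcipotriol replicate 2 left out as well, the log2 fold changes were 2.75 for Serping1, 4.11 for Cd55 and 1.497 for Cfb. Either way the p62KO vehicle group was then 1 library.

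The same library was high in 3 more genes that hepatocytes and stromal cells both make, C3, C1ra and Pros1. C3 was at 277 and 48.6 CPM in the p62KO vehicle pair, while the WT vehicle pair had 52.0 and 48.6 CPM. C1ra, the C1r protease, stood at 47.7 and 5.28 CPM against 5.71 and 6.16 CPM, and Pros1, the protein S cofactor of protein C, at 125 and 44.2 CPM against 52.0 and 46.7 CPM. In all 3, replicate 2 lay at or below the WT libraries and replicate 1 lay far above them, and their adjusted p in edgeR's test were 0.123 for C3, 0.106 for C1ra and 0.260 for Pros1. Without replicate 1 their log2 fold changes were -0.04, -0.16 and -0.15. Saa3 and Ccl2 were also highest in that library, and macrophage markers summed to 178 CPM there against 30.1 CPM in replicate 2, of which Gpnmb was 156 and 23.9 CPM. The marker sum was not highest there: WT calcipotriol replicate 1 had 196 CPM, with Gpnmb at 184 CPM, against 65.2 CPM in its partner. The part of the state of p62KO vehicle replicate 1 in these values was not tested. C2, the convertase protease shared by the classical and lectin routes, had 12 and 5 counts in p62KO vehicle cells and none in WT vehicle cells, at least 4.41-fold higher against a limit of 3 counts over the WT group.

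**Figure D5:**
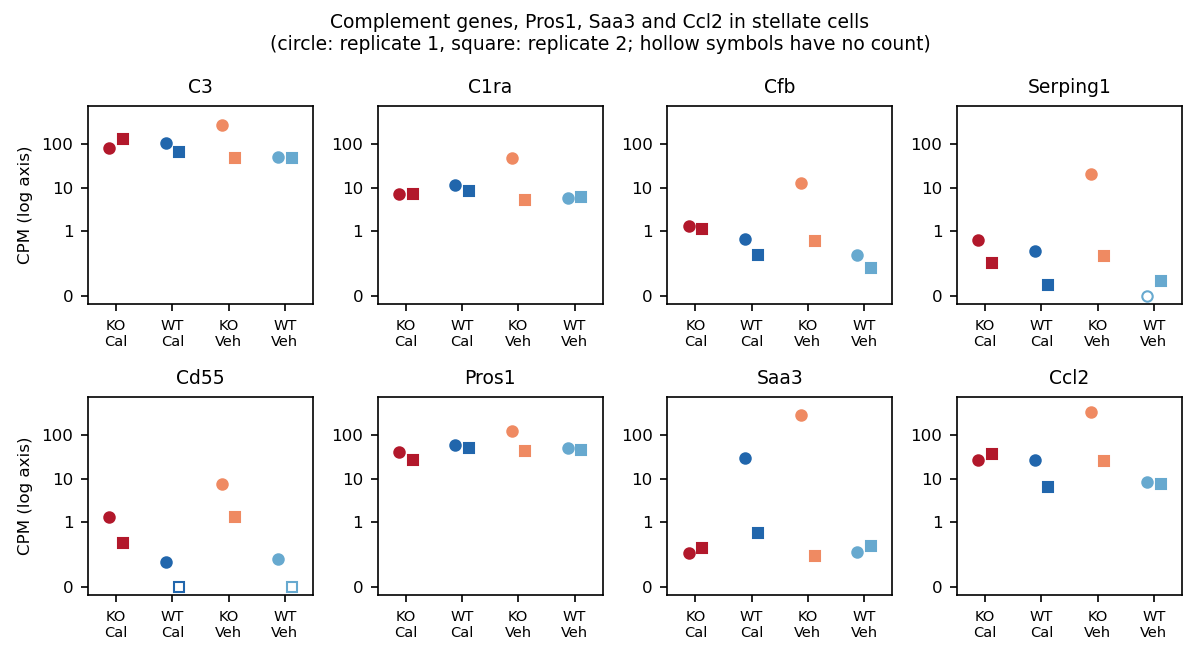
CPM (log axis) of 6 complement and clotting genes and of Saa3 and Ccl2 in each stellate cell library; circles are replicate 1, squares replicate 2, and hollow symbols have no count. The circle of the p62KO vehicle group is the highest point in every panel, with C3 at 277 CPM and Saa3 at 298 CPM.

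The count of genes called between p62KO and WT vehicle cells among the 49 was 1 and 9 without p62KO vehicle replicate 1 or 2, against 6.51% and 13% of all genes. It was 0 without either WT vehicle replicate (1.85% and 1.81% of all genes), and 2 without either WT calcipotriol replicate (6.67% each), which enters the shared estimate of spread.

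With calcipotriol, 3 of the 14 genes passed between p62KO and WT stellate cells, 1 higher and 2 lower, against 10.3% and 9.53% of all genes, or 19.8% in either direction. Of the 14, 6 had an unadjusted p under 0.05, against 37.8% of all genes. Between the genotypes 4 were higher and 7 lower without overlap, against 32.4% and 32.6% of all genes and 64.9% for both together. Thbd was at 31.7 and 28.6 CPM in p62KO cells against 138 and 157 CPM in WT cells, with no overlap, a log2 fold change of -2.29 ± 0.40 and an adjusted p of 0.00882 in edgeR's test. F3 was at 352 and 308 CPM in p62KO cells against 582 and 570 CPM in WT cells (log2 fold change -0.80 ± 0.19; adjusted p = 0.0255 in edgeR's test). Plaur was at 113 and 159 CPM in p62KO cells against 53.7 and 74.5 CPM in WT cells (log2 fold change 1.09 ± 0.30; adjusted p = 0.0379 in edgeR's test). Neither F3 nor Plaur overlapped between the genotypes. Cfb, Cd55 and Serping1 did not pass in edgeR's test, while Cd55 was called by DESeq2 (adjusted p = 0.0304) and in edgeR's test with the replicate block (0.0225). Cfb was at 1.29 and 1.11 CPM in p62KO cells against 0.632 and 0.272 CPM in WT cells, Cd55 had 34 and 9 counts against 2 and 0, and Serping1 had 16 and 5 counts against 6 and 1. C2 again had counts in p62KO cells alone, 11 and 12 against none, at least 5.05-fold higher. C3 overlapped, at 83.1 and 131 CPM in p62KO cells against 105 and 68.1 CPM in WT cells. The count called was 1 and 0 without WT calcipotriol replicate 1 or 2 (2.65% and 2.08% of all genes), and 1 without either WT vehicle replicate (8.59% and 8.88%). Without p62KO calcipotriol replicate 2 it was 2 (14.9% of all genes), with Plaur at an adjusted p of 0.137.

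Calcipotriol against vehicle gave no call in either genotype. In WT cells edgeR's test called 0 of 12681 genes (0%), with 301 at an unadjusted p under 0.05, and DESeq2 called 16, none of them among the 49. Of the 14 tested genes 4 had an unadjusted p under 0.05, against 2.37% of all genes. F3 was at 582 and 570 CPM with calcipotriol against 376 and 380 CPM with vehicle (log2 fold change 0.61 ± 0.19), Masp1 at 90.3 and 103 CPM against 142 and 141 CPM (-0.55 ± 0.19), Plau at 24.9 and 33.2 CPM against 42.3 and 42.2 CPM (-0.54 ± 0.20) and Plaur at 53.7 and 74.5 CPM against 106 and 102 CPM (-0.70 ± 0.30). None of the 4 overlapped between treatments. Of the 14 genes 4 were higher and 6 lower without overlap, against 25% and 29.3% of all genes and 54.3% for both together. In a fit of the WT groups alone with edgeR's test F3, Masp1 and Plaur passed, with adjusted p of 0.00416, 0.0153 and 0.0350. In that fit 345 of 11987 genes passed (2.88%).

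In p62KO cells calcipotriol also gave 0 calls of 12681 genes (0%) in edgeR's test, with 1714 at an unadjusted p under 0.05, and 54 in DESeq2, none of them among the 49. Of the 14 genes 2 were lower and none higher without overlap, against 19% and 21.4% of all genes and 40.4% for both together. F3 overlapped there, at 352 and 308 CPM with calcipotriol against 357 and 272 CPM with vehicle (log2 fold change 0.07 ± 0.19). Plaur overlapped at 113 and 159 CPM against 69.6 and 121 CPM (0.51 ± 0.30). C1ra, Cfb, Cd55, Pros1 and Serping1 had an unadjusted p under 0.05, against 13.5% of all genes, all lower with calcipotriol, with adjusted p of 0.361 each. Their vehicle group holds replicate 1 described above, and without it their log2 fold changes ran from -0.66 (Cd55) to 1.03 (Cfb). Without vehicle replicate 2 the group was replicate 1 alone, so calls in that fit rest on the library that stood apart. The difference between genotypes in the response to calcipotriol was tested as an interaction and passed for 0 genes (0%), with 677 at an unadjusted p under 0.05 and 0 in DESeq2. Plaur had the smallest unadjusted p among the 14 for that difference, with a log2 value of 1.21 ± 0.42 and an adjusted p of 0.708.

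A wider list of 69 other complement and clotting genes was tested in the same fits. In liver 58 were tested, 2 rose and 1 fell, against 4.48% and 3.45% of all genes, with a median log2 fold change of 0.15. Fgl2, a prothrombinase-like fibrinogen relative, was at 42.3, 35.2 and 24.1 CPM in p62KO livers against 13.8, 16.0 and 11.3 CPM in WT livers (log2 fold change 1.31 ± 0.22; adjusted p = 0.0331 in edgeR's test). Anxa2, a cell-surface dock for plasminogen and tissue plasminogen activator, was at 100, 122 and 74.9 CPM against 54.8, 37.4 and 32.3 CPM (1.26 ± 0.25; 0.0380). Cd59a, an inhibitor of the membrane pore, fell, at 59.4, 67.8 and 78.2 CPM against 104, 108 and 96.9 CPM (-0.59 ± 0.13; 0.0424). None of the 3 overlapped between the genotypes.

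In vehicle-treated stellate cells 31 of the wider list were tested, 7 rose and 2 fell between p62KO and WT cells, against 6.95% and 5.94% of all genes. With calcipotriol 6 rose and 5 fell, against 10.3% and 9.53%. Kept for testing through p62KO libraries, Cd59a had at most 1 count in any WT library and could pass only as higher. Bdkrb1 and St14 also entered mainly through p62KO libraries, with at most 13 and 19 counts in any WT library. The numbers called in the wider list therefore cannot be weighed against the shares of all genes in stellate cells. Cd59a, lower in p62KO livers, was higher in p62KO stellate cells, with 3.72 to 6.23 CPM in the 4 p62KO libraries against 0 to 0.0679 CPM in the 4 WT libraries, a difference between tissue and cells that was not tested. S100a10, the partner of annexin A2, was at 650 to 959 CPM in p62KO libraries against 284 to 356 CPM in WT libraries, and Vkorc1 and Ggcx, which act in the vitamin K-dependent activation of clotting factors, were at 36.7 to 56.5 CPM and 34.5 to 37.3 CPM against 17.0 to 23.1 CPM and 18.9 to 23.2 CPM. Cd93, a C1q receptor-like protein, was lower, at 0.379 to 1.15 CPM against 2.99 to 5.96 CPM. These 5 passed in edgeR's test with and without calcipotriol, with adjusted p of 0.00116 for Cd59a, 0.0158 for S100a10, 0.0151 for Vkorc1, 0.0248 for Ggcx and 0.0128 for Cd93 with vehicle. Bdkrb1, a kinin receptor, followed the library that stood apart, at 20.8 and 1.43 CPM in p62KO vehicle cells against 0.136 and 0.335 CPM in WT vehicle cells.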

How the data were processed

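The 6 liver libraries (3 p62KO, 3 WT) and 8 stellate cell libraries (4 groups of 2) were polyA-selected, made with a directional kit and read single-end, per the labels' protocols. Deposited by the authors were 2 tables of whole-number counts per gene, on mm10 per the submitters' processing notes; the aligner, the counter and its use of strand are not given in the sources used here. No per-sample column was left out (0), and no pair of replicates agreed within sampling noise (chi-squared per degree of freedom 1.66 to 195).

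Each table was fitted whole with edgeR 4.0.16 (R 4.3.3; filterByExpr, TMM, quasi-likelihood test, Benjamini-Hochberg, threshold 0.05), the livers in 1 fit and all 8 stellate libraries in another, so that the 5 stellate comparisons share 1 estimate of spread. DESeq2 1.42.0 was an alternative. SE is the size of the log2 fold change over the root of its F value, so it is approximate. CPM is relative to the TMM-scaled library total, and RPKM divides by the summed exon length of GENCODE M21. Depth sets a limit of 3 counts for a count of 0, and 95% intervals of count ratios are exact and cover counting error only. Positions are from the same annotation on GRCm38, which mm10 names.

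The members, the sources assigned to them and the lists were chosen with earlier results of these data known. All members could be named; of the wider list, at most 6 passing genes with the smallest p per comparison. The procedure was run on simulated counts with the same spread for every gene and no library set apart, a setting unlike these data. Same-numbered replicates are not said to share anything; alternatives include the replicate block, other scalings, no count filter, leaving out each library, and fits of only the groups compared.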

Additional observations from a re-analysis of the deposited data

Results flagged for a closer look

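C3ar1, the receptor for the complement fragment C3a, pointed opposite ways in the livers and in the stellate cells. Its log2 fold change in p62KO over WT was 1.12 in livers, where every p62KO liver was above every WT liver. In stellate cells it was -1.05 with vehicle and -0.88 with calcipotriol, and within each treatment both p62KO libraries were below both WT libraries. The difference between livers and cells was not tested, since they are separate tables. Stellate levels were low, at 1.503 to 2.85 CPM in the 4 p62KO libraries against 2.47 to 5.76 CPM in the 4 WT libraries, so the ranges overlapped across treatments. In edgeR's test none of the 3 comparisons passed, with adjusted p of 0.0589, 0.151 and 0.179. DESeq2 called it in liver, with an adjusted p of 0.0101, and in neither stellate comparison.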

How the results depend on the processing

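The number of the 49 genes called in liver was 3, and 14 with DESeq2 (9 higher, 5 lower), against 7.94% and 16.8% of all genes. It ran from 0 to 20 when 1 library was left out, against 0.0227% to 27.8% of all genes. In a fit of the p62KO and WT vehicle groups alone Plau, Masp1 and F2r passed, and Thbd and Cd55 were tested but did not pass. Cfb and Serping1 were too low to test there. The number called between p62KO and WT vehicle cells was 5, and 8 with DESeq2 and 3 in that fit, against 12.9%, 17% and 19.6% of all genes. With calcipotriol it was 3, and 8 without p62KO vehicle replicate 1 and p62KO calcipotriol replicate 2, 1 in a fit of the 2 groups alone, and 0 to 4 with 1 library left out. Between calcipotriol and vehicle in WT cells it was 0, and 3 in a fit of the 2 groups alone, against 0% and 2.88% of all genes. In p62KO cells and for the interaction it was 0, against 0% of all genes, and it moved in some fits that left 1 library in a group. Of the 11 single-gene calls between genotypes, followed through 146 gene and setting pairs, 59 pairs lost the threshold, 87 kept it and 0 reversed.

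With the replicate number as a block, 4 genes were called in liver, 4 between vehicle cells and 4 between calcipotriol cells, against 4.97%, 10.9% and 18.3% of all genes. Each of the other comparisons had 0. The pairing has no source in the labels. Deviations of same-numbered livers correlated at 0.19, -0.19 and 0.14. Those of same-numbered p62KO vehicle and WT calcipotriol stellate libraries correlated at 0.43, and other stellate pairs of groups at -0.15 to 0.04. Crossing the numbers of the p62KO stellate groups, chosen after seeing the data (their correlation was -0.15), also called 0.

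Over all genes the liver count was 1020, and 2363 with DESeq2 and 639 with the block. It was 1634 and 2509 between genotypes in vehicle and calcipotriol cells, and 5459 and 5606 without the same 2 libraries, with 1293 for the calcipotriol groups fitted alone. For calcipotriol in WT cells it was 0, and 283 without those 2 libraries and 345 in the fit alone. With 1 library left out the ranges were 3 to 3669 in liver, 238 to 3635 and 272 to 6052 between genotypes, 0 to 4559 for calcipotriol in p62KO cells and 0 to 2514 for the interaction. In stellate cells 35 of the 49 genes were too low to test.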

Other observations

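Fga made up 36.8%, 39.0% and 40.3% of fibrinogen counts in p62KO livers against 38.3%, 37.9% and 39.7% in WT livers. The 3 fibrinogen chains took 32.1%, 28.5% and 29.9% of the counts of the 49 genes in p62KO livers against 28.0%, 31.1% and 29.0% in WT livers. C3 took 16.0%, 20.6% and 25.5% in p62KO livers against 19.5%, 17.7% and 20.7% in WT livers. Kng1 took 11.6%, 10.2% and 4.77% in p62KO livers against 6.31%, 5.22% and 5.39% in WT livers. The groups overlapped in all 4 proportions, and p62KO liver 3 had both the highest C3 share and the lowest Kng1 share of the 6 livers.

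C4b, the stromal and hepatocyte gene of complement C4, was named after its values were seen. It stood at 30.1 and 3.06 CPM in p62KO vehicle stellate cells against 1.16 and 1.01 CPM in WT vehicle cells, and at 5.61 and 8.52 CPM in p62KO calcipotriol cells against 3.85 and 1.69 CPM in WT calcipotriol cells. The p62KO libraries were above the WT libraries under both treatments, and the highest was the p62KO vehicle library with Saa3 at 298 CPM.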
